A study of Mus musculus with 14 samples.

Results

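The 178 genes described here are the mouse genes of the Zfp series (a symbol of Zfp followed by digits only) that lie outside chromosomes 5 and 8 and had a mean of 200 or more counts over 14 hippocampal libraries. They were chosen by their symbol, their chromosome and this mean count from 24421 genes in the table of counts, which lists 337 Zfp genes, 298 of them outside these chromosomes. The mean count used all mice of both genotypes, so that the rule did not use the difference between genotypes. The members lie on 18 chromosomes. Of these, 96 fall into 16 chromosomal clusters, formed where the starts of neighbouring Zfp genes were within 1 Mb of each other and 3 or more members were present, and 82 lie outside such clusters. Just inside the limit were Zfp784 with a mean count of 201 and Zfp101 with 206, and just outside it Zfp787 with 199 and Zfp707 with 196.

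RNA was sequenced from 7 naive mice labelled LPAR2-/-, the genotype without the lysophosphatidic acid receptor LPAR2, and from 7 naive wild-type (WT) mice, with 1 library per mouse. The labels give all mice as males of the strain 129.C57Bl6 at 10 to 12 weeks of age, whereas the deposited design text and the paper describe older animals, so that the age is uncertain. The tissue is the hippocampus according to the labels and the methods, and the dentate gyrus according to the results of the paper. Knockouts and controls came from separate breeding colonies, the controls being C57BL/6 and 129/SvJ mixtures, so that genotype and colony cannot be told apart. The labels name no batch and no litter. The depth, as counts on genes, was 15434620 in the shallowest and 23258949 in the deepest library. Lpar2 itself had 144 to 234 counts (median 191) in the libraries labelled LPAR2-/- and 27 to 66 counts (median 45) in the WT libraries. These counts run against the label. They are summed over all exons of the gene and do not show the deleted stretch of exon 2. Every direction below therefore refers to the labels. Markers of neurons, astrocytes, microglia and endothelium had overlapping summed levels in both genotypes, and the summed level of 8 neuronal markers was 8733 to 10874 CPM (counts scaled by the size of each library) in mice labelled LPAR2-/- and 8859 to 10316 CPM in WT mice. The 6 striatal markers summed to 67.1 to 77.8 CPM in mice labelled LPAR2-/- and to 57.7 to 68.2 CPM in WT mice, with 6 of 7 mice labelled LPAR2-/- above every WT mouse and none of the markers past the threshold. Oligodendrocyte markers summed to 883 to 1806 CPM in 6 mice labelled LPAR2-/-, to 3648 CPM in mouse 3 of that group and to 1099 to 1894 CPM in WT mice. The summed level of 8 meningeal markers was 85.8 to 465 CPM (median 279) in mice labelled LPAR2-/- and 59.5 to 327 CPM (median 113) in WT mice. The median log2 fold change of these markers was 1.05, with Lum past the threshold and all 8 detected. The 6 choroid plexus markers summed to 26.3 to 52.8 CPM in 6 mice labelled LPAR2-/-, to 288 CPM in mouse 2 of that group and to 29.5 to 36.0 CPM in WT mice. Of 5 erythroid markers, 4 (Hba-a1, Hba-a2, Hbb-bs and Hbb-bt) had no count in any library. Reads matching several genes or places were not counted, so that these values do not show that blood was absent. The part of striatal tissue, oligodendrocytes, meninges or choroid plexus in the values below was not tested. In bulk tissue, fewer cells of a type and less RNA per cell cannot be told apart.

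Most Zfp genes encode proteins with zinc fingers of the C2H2 kind. Each such finger is a short fold in which a pair of cysteines and a pair of histidines hold a zinc ion. Arrays of fingers can bind short stretches of DNA sequence, and most members are taken to be DNA-binding regulators. Many carry a KRAB domain in front of the fingers. This domain recruits the corepressor TRIM28 and with it the histone methyltransferase SETDB1 and heterochromatin proteins, a route best known for the silencing of transposable elements. The family grew by repeated tandem duplication, and its genes therefore lie in clusters in which neighbours resemble each other. In the brain, single members are known for roles in neural progenitors, in RNA binding and in ribosome quality control.

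The coding sequences of GENCODE M21 on the genome build mm10 were matched to 177 of the 178 members (176 by symbol), all except Zfp783. A C2H2 finger was counted where a translated sequence held a cysteine, 2 to 4 residues, a cysteine, 12 residues, a histidine, 3 to 5 residues and a histidine. Of the matched members, 160 (90.4%) had 3 or more fingers, compared with 2.93% of all 21559 coding genes read in the same way. The median was 10 fingers. The largest array was that of Zfp142 with 36 fingers, followed by Zfp462 with 33 and Zfp236 with 30, while Zfp365 and Zfp839 had 0 by this pattern. A letter pattern of the KRAB A box was found in 76 members (42.9%), compared with 1.49% of all coding genes. In clusters, 60 of 95 matched members had it, and outside clusters 16 of 82. The pattern was not checked against annotated domains, so that members without it may still carry a KRAB domain. The following sequences are the DNA of the first finger of the 7 members that passed the test below, and of Zfp758, the member with the lowest fold change. They are shown because this repeated unit is what the members share and what sets them apart from each other. Each reads 5′ to 3′ on the coding strand, and the capitals mark the codons of the 2 cysteines and the 2 histidines that hold the zinc.
Zfp467: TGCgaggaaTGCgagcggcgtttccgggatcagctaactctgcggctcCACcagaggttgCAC
Zfp46: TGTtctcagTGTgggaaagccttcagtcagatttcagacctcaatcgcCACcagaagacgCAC
Zfp414: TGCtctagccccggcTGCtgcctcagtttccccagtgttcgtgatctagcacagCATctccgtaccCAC
Zfp810: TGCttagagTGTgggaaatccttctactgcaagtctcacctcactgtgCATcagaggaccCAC
Zfp13: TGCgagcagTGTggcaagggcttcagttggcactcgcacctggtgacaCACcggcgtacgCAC
Zfp687: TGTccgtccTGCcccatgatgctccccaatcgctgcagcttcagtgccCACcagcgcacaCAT
Zfp180: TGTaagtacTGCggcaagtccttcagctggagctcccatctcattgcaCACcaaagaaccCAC
Zfp758: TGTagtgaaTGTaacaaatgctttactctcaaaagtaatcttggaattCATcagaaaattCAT

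These fingers lie in coding exons, on mm10 at chr6:48439171-48439233 (Zfp467, minus strand), chr4:136290220-136290282 (Zfp46, plus strand), chr17:33630381-33630449 (Zfp414, plus strand), chr9:22278999-22279061 (Zfp810, minus strand), chr17:23576732-23576794 (Zfp13, minus strand), chr3:95010157-95010219 (Zfp687, minus strand), chr7:24105115-24105177 (Zfp180, plus strand) and chr17:22375249-22375311 (Zfp758, plus strand). The finger of Zfp414 spans 69 bases, against 63 in the other sequences shown. The coding sequence of Zfp414 held 2 fingers in 298 residues, whereas those of Zfp467, Zfp46, Zfp180 and Zfp758 held 12 fingers each, that of Zfp810 held 10, that of Zfp687 held 9 in 1236 residues and that of Zfp13 held 8. The KRAB pattern was found in Zfp46, Zfp810, Zfp13 and Zfp758 and not in Zfp467, Zfp414, Zfp687 or Zfp180.

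The question was how the Zfp genes differed between the genotypes. Most of them were close to equal. Of the 178 members, 6 were higher and 1 was lower in mice labelled LPAR2-/- at a Benjamini-Hochberg adjusted p under 0.05 in edgeR's quasi-likelihood test. The members that rose were Zfp467, Zfp46, Zfp414, Zfp810, Zfp13 and Zfp687, and the member that fell was Zfp180. These 7 genes amount to 3.93% of the members, beside 6.77% of all 14897 genes tested (3.32% higher and 3.46% lower) and 6.59% of the 8878 genes that lie outside chromosomes 5 and 8 and have a mean count of 200 or more. DESeq2 called 6 higher and 5 lower, the additional lower members being Zfp933, Zfp831, Zfp950 and Zfp738. These were 6.18% of the members, beside 9.35% of all genes tested in DESeq2, which gave 578 of them no adjusted p. With mouse number fitted as a replicate block, edgeR called 3 members higher and 0 lower, beside 314 higher and 272 lower of all 14897 genes tested. In edgeR without this block, an unadjusted p under 0.05 was found for 36 members, and for 22.4% of all genes tested. Leaving out single mice changed the number of members past the threshold. It was 3 without mouse 1 labelled LPAR2-/-, WT mouse 2 or WT mouse 4, and 11 without mouse 3 or mouse 7 labelled LPAR2-/- or WT mouse 1, while the share of all genes called ran from 3.79% to 9.26%. No member had values that separated the genotypes without overlap, which 1.77% of all genes tested had. All 178 members passed the filter on low counts.

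Fold changes were small in either direction. The median log2 fold change of the members was −0.014 (−0.029 to −0.00023 with single mice left out), compared with 0.0029 over all genes tested and −0.0085 over the genes of a similar level outside chromosomes 5 and 8. With 76 positive and 102 negative values the signs leaned to the lower side, but with upper quartile normalization they were 92 and 86 and the median became 0.0059. The values ranged from −0.55 for Zfp758 to 0.53 for Zfp467, and 170 members differed by less than 1.2-fold. The precision was sufficient to limit most of them, as the 95% confidence interval lay within 1.5-fold of equality for 172 members and within 1.2-fold for 134. The standard error was 0.059 at the median and 0.034 to 0.20 over the members. The spread between mice of a genotype, at a median SD of 0.109 on the log2 CPM scale, was like that of the genes of a similar level (0.105). Summed over the members, the counts made up 0.665% to 0.737% of a library in mice labelled LPAR2-/- and 0.662% to 0.720% in WT mice.

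**Figure D1:**
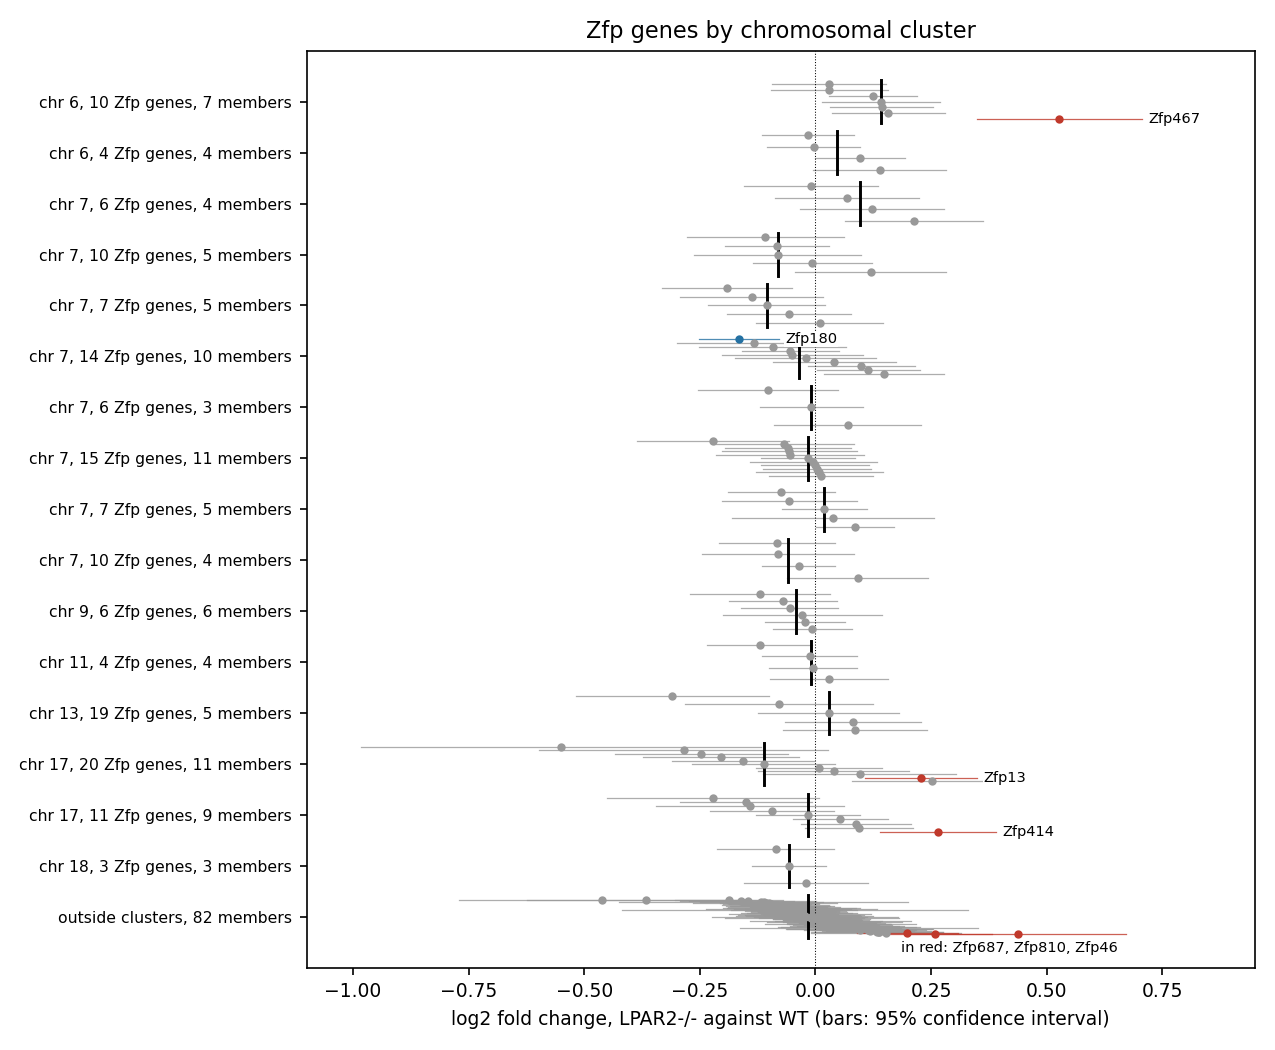
Log2 fold change of each of the 178 Zfp genes (mice labelled LPAR2-/- against WT, x axis) in rows for the 16 chromosomal clusters and for the 82 genes outside clusters. Points are genes, lines are 95% confidence intervals, black bars are the medians of a row, red marks genes past the threshold and higher, and blue the gene past it and lower. All 7 members of the uppermost cluster on chromosome 6 lie above 0, and most other rows straddle 0.

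Zfp467 (chr6:48427692-48445825), a zinc finger factor known from the differentiation of bone and fat cells, had the largest rise. Its level was 16.6, 22.7 and 26.5 CPM (lowest, median and highest) in mice labelled LPAR2-/- and 14, 14.6 and 17.2 CPM in WT mice. Of the mice labelled LPAR2-/-, 6 of 7 lay above the highest WT mouse, and mouse 2 of that group at 16.6 CPM lay within the WT range. The log2 fold change was 0.53 ± 0.085 (SE, edgeR adjusted p = 0.00198).

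Zfp46 (chr4:136286069-136293942), a KRAB gene, reached 82.6, 91.3 and 106 CPM in mice labelled LPAR2-/- and 56.4, 64.4 and 93.2 CPM in WT mice. The log2 fold change was 0.44 ± 0.11 (SE, edgeR adjusted p = 0.0280). WT mice 1 and 7 with 93.2 and 83.8 CPM lay within the range of the mice labelled LPAR2-/-, and the other 5 WT mice lay below it at 56.4 to 67.2 CPM. The call was lost when any one of 7 single mice was left out (mice 1 and 2 labelled LPAR2-/- and WT mice 2 to 6, adjusted p up to 0.0660), while the fold change stayed between 0.39 and 0.53.

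Zfp414 and Zfp810 rose by a similar amount. Zfp414 (chr17:33629092-33631714) was measured at 28.4, 31.9 and 38.5 CPM in mice labelled LPAR2-/- and at 26.1, 26.9 and 29.4 CPM in WT mice. Its log2 fold change was 0.27 ± 0.059 (SE, edgeR adjusted p = 0.0152), and 6 of 7 mice labelled LPAR2-/- lay above all WT mice. Zfp414 shares 24.7% of its 50-base windows with the overlapping transcript model Gm20507, which starts inside it on the same strand in GENCODE M21, so that its count may lack part of its reads and is uncertain. Zfp810 (chr9:22276748-22307638), a KRAB gene that shares no such window with another gene, had 27.0, 29.5 and 33.1 CPM against 22.2, 24.99 and 27.7 CPM. Its log2 fold change was 0.26 ± 0.059 (SE, edgeR adjusted p = 0.0166). Again 6 of 7 mice labelled LPAR2-/- were above the highest WT mouse, and the 2 highest WT mice were mice 1 and 7.

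Zfp13, Zfp687 and Zfp180 had the smallest changes among the genes past the threshold. Zfp13 (chr17:23575852-23599487) was at 21.6, 25.2 and 27.4 CPM in mice labelled LPAR2-/- and at 19.7, 21.2 and 22.9 CPM in WT mice (log2 fold change 0.23 ± 0.057, SE, edgeR adjusted p = 0.0258). Only mouse 3 labelled LPAR2-/- lay within the WT range. Zfp687 (chr3:95006702-95015238), which is known to form a chromatin complex with ZMYND8, was at 50.8, 53.4 and 53.8 CPM and at 40.8, 46.8 and 51.2 CPM (0.20 ± 0.051, SE, edgeR adjusted p = 0.0291). The mice labelled LPAR2-/- lay close together with an SD of 1.44 CPM (n = 7), and the WT mice were spread with an SD of 4.23 CPM (n = 7), with mice 6 and 7 reaching the lower end of the other genotype. Zfp180 (chr7:24081897-24107708) fell from 56.1, 61.97 and 65.1 CPM in WT mice to 51.7, 54.0 and 58.1 CPM in mice labelled LPAR2-/- (−0.17 ± 0.041, SE, edgeR adjusted p = 0.0240). Here WT mice 1 and 7 with 56.1 and 57.3 CPM were the 2 lowest of their genotype and overlapped the other group. The calls of these genes did not hold without every mouse. That of Zfp13 was lost without mouse 1 or 2 labelled LPAR2-/- or WT mouse 2 or 4 (adjusted p up to 0.0620). That of Zfp687 was lost without mouse 1, 2 or 4 labelled LPAR2-/- or WT mouse 2, 4 or 5 (up to 0.0699), and that of Zfp180 without mouse 1 or 4 labelled LPAR2-/- or WT mouse 2, 4 or 6 (up to 0.0577), whereas those of Zfp467, Zfp414 and Zfp810 were kept in all 14.

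**Figure D2:**
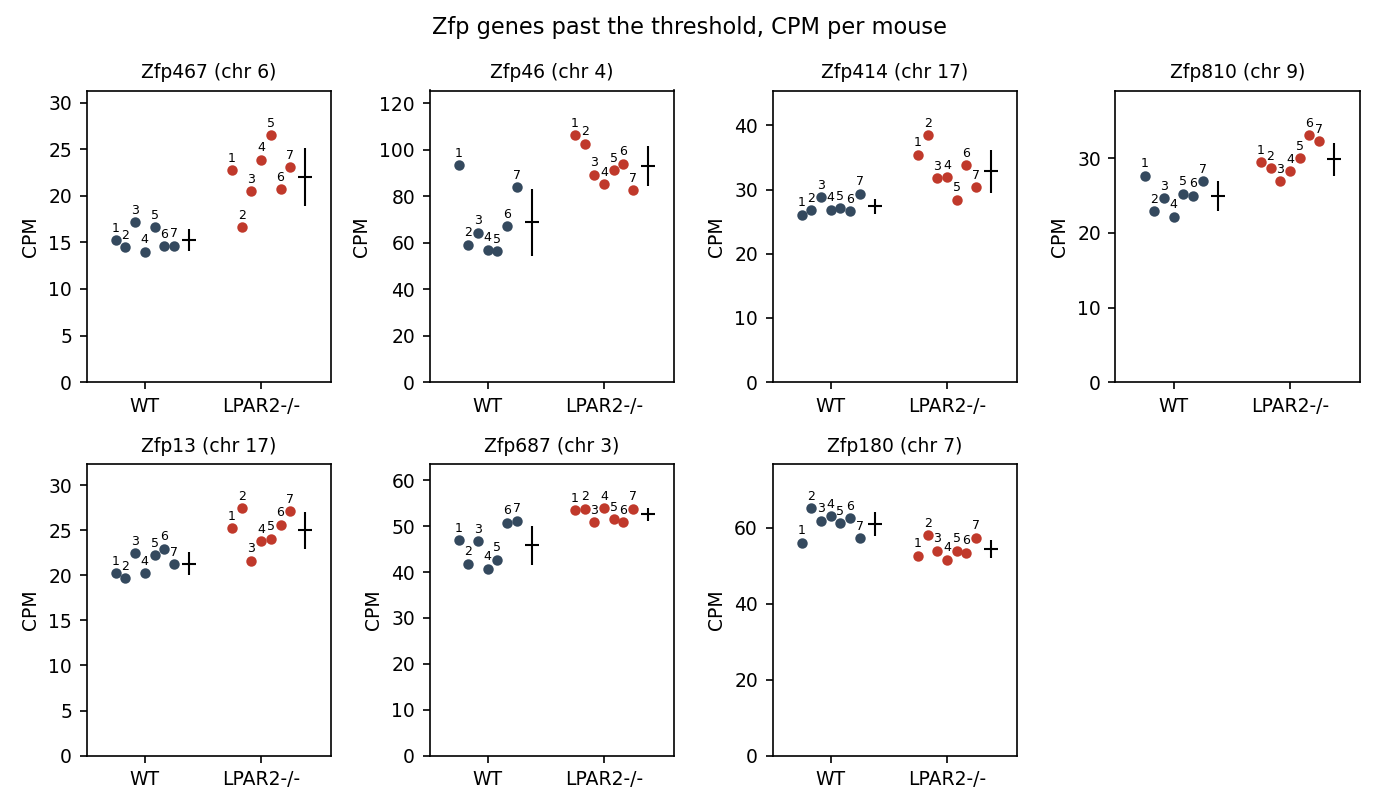
CPM of the 7 Zfp genes past the threshold in each WT mouse (dark) and each mouse labelled LPAR2-/- (red), numbered as in the labels, with the mean and SD (n = 7) beside the points. The genotypes overlap in every panel; WT mice 1 and 7 lie near the mice labelled LPAR2-/- for Zfp46, Zfp810 and Zfp180.

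On chromosome 6, the cluster at 47.8 to 48.6 Mb holds 10 Zfp genes, of which 7 are members. All 7 had a positive fold change, with a median of 0.14. Leaving out single mice gave 6 to 7 positive values, and upper quartile normalization gave 7. The 3 Zfp genes of the same cluster under the count limit, named after their values were seen, had negative values instead and did not pass the threshold (Zfp786 −0.24 ± 0.096, SE, edgeR adjusted p = 0.150, Zfp398 −0.11 and Zfp775 −0.016). Zfp467 was the member past the threshold. Of the others, Zfp783 (log2 fold change 0.16 ± 0.058, SE), Zfp956 (0.14 ± 0.053), Zfp212 (0.14 ± 0.060) and Zfp777 (0.13 ± 0.045) had unadjusted p-values under 0.05 but adjusted p-values of 0.108 to 0.172 in edgeR. Zfp783, a transcribed pseudogene in GENCODE M21, overlaps Zfp956 on the same strand, and both counts are uncertain to that extent. Zfp956, the most abundant of these, was at 42.1, 48.6 and 54.3 CPM in mice labelled LPAR2-/- and 41.4, 43.2 and 46.1 CPM in WT mice, so that the genotypes overlapped. Zfp282 and Zfp746 were at 0.03 each. Zfp746 encodes PARIS, a repressor degraded with the help of Parkin. The summed level of the 7 members was 192 to 226 CPM (median 213) in mice labelled LPAR2-/- and 184 to 201 CPM (median 197) in WT mice. In the cluster at 117.8 to 118.5 Mb, 0 of 4 members passed the threshold. Values ranged from −0.016 for Zfp9 to 0.14 for Zfp239, and the sign of Zfp9 turned with upper quartile normalization.

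Chromosome 7 carried 53 members, more than any other chromosome, and 8 of the 16 clusters. Zfp180 was the 1 member past the threshold there. It lies at the edge of the cluster at 24.1 to 25.2 Mb, which has 14 Zfp genes and 10 members. Its direct neighbour Zfp112, which starts at 24112320, had the highest value of this cluster (0.15 ± 0.061, SE, edgeR adjusted p = 0.160), with 10.5, 11.8 and 12.7 CPM in mice labelled LPAR2-/- and 9.74, 10.4 and 12.0 CPM in WT mice. The median of the cluster was −0.035, and −0.059 to −0.016 with single mice left out. The cluster at 29.8 to 30.2 Mb holds 15 Zfp genes, 11 of them members. Its median was −0.016 and 3 of 11 values were positive, but 6 of 11 were with upper quartile normalization, and 0 of 11 without mouse 6 or 7 labelled LPAR2-/- or WT mouse 3. Without these mice the median was −0.032, −0.040 and −0.054. Zfp420 was lowest (−0.22 ± 0.078, SE, edgeR adjusted p = 0.102) and Zfp74 highest (0.012). The summed level of its members was 306 to 343 CPM in mice labelled LPAR2-/- and 300 to 348 CPM in WT mice.

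The 6 other clusters of chromosome 7 had no member past the threshold. At 4.9 to 5.1 Mb, 3 of 4 values were positive (median 0.095), and Zfp865 had the largest (0.21 ± 0.071, SE, edgeR adjusted p = 0.0827, and 0.0438 without mouse 3 labelled LPAR2-/-). Its count is uncertain, since 19.1% of its 50-base windows also occur in other genes. At 6.1 to 7.2 Mb, 1 of 5 was positive (median −0.081), from −0.11 for Zfp667 to 0.12 for Zfp28, which shares 16% of its windows with Gm3203. At 12.4 to 13 Mb, 1 of 5 was positive (median −0.11). The lowest there was Zfp110, known as an interactor of the neurotrophin receptor p75, with 13.4, 16.7 and 17.3 CPM in mice labelled LPAR2-/- and 16.9, 17.7 and 19.9 CPM in WT mice (−0.19 ± 0.067, SE, edgeR adjusted p = 0.0989). At 27.7 to 28.4 Mb the range was −0.10 (Zfp626) to 0.069 (Zfp850), at 41.6 to 43.6 Mb it was −0.073 (Zfp719) to 0.085 (Zfp788), and at 127.2 to 127.9 Mb it was −0.084 (Zfp646) to 0.091 (Zfp553). Some signs depended on the setting. At 12.4 to 13 Mb, 0 of 5 were positive without mouse 1 or 7 labelled LPAR2-/- or WT mouse 1 or 7, and at 4.9 to 5.1 Mb, 4 of 4 were positive with upper quartile normalization and without mouse 2, 3 or 5 labelled LPAR2-/- or WT mouse 3 or 6.

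The cluster of chromosome 17 at 21 to 23.6 Mb had the widest range of values. It holds 20 Zfp genes and 11 members, of which 5 were positive and 6 negative (median −0.11, and −0.092 with upper quartile normalization). Without mouse 7 labelled LPAR2-/- 3 were positive and the median was −0.17. Here 6 of 11 had an unadjusted p under 0.05 in edgeR, and 1 passed the threshold, Zfp13. Of all genes tested, 22.4% had such a p and 6.77% passed the threshold. The members with the lowest and the highest values were Zfp758 (−0.55 ± 0.20, SE, edgeR adjusted p = 0.121) and Zfp945 (0.25 ± 0.082, adjusted p = 0.0773). Zfp945 was at 9.74, 12.0 and 13.8 CPM in mice labelled LPAR2-/- and at 8.32, 10.1 and 10.8 CPM in WT mice, so that the ranges overlapped, and without mouse 4 labelled LPAR2-/- its adjusted p was 0.0458. Zfp944, the direct neighbour of Zfp758, was at −0.25 ± 0.089 (SE, adjusted p = 0.108). It shares 8.67% of its 50-base windows with Zfp942, and its count is uncertain to that extent. The second cluster of chromosome 17, at 32.8 to 33.6 Mb, contains 9 members from Zfp101 (−0.22 ± 0.11, SE, edgeR adjusted p = 0.240) to Zfp414, with a median of −0.016 that became 0.0040 with upper quartile normalization and ran from −0.051 to 0.011 with single mice left out.

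In the remaining clusters no member passed the threshold. On chromosome 9, at 19.6 to 20.6 Mb, all 6 Zfp genes are members and 0 of 6 values were positive, although the median was only −0.042 (−0.066 to −0.023 with single mice left out) and no unadjusted p was under 0.05. Up to 2 became positive when single mice were left out, and 1 with upper quartile normalization. On chromosome 18, at 24 Mb, the 3 values ranged from −0.086 (Zfp397) to −0.020 (Zfp35), and 0 to 1 were positive with single mice left out. On chromosome 11, at 58.3 to 59.5 Mb, they ranged from −0.12 (Zfp692) to 0.030 (Zfp39), and 0 to 3 of 4 were positive with single mice left out. The cluster of chromosome 13 at 67 to 67.8 Mb holds 19 Zfp genes but only 5 members, since the others were under the limit of 200 counts. Of these others 13 were tested, and 1 rose and 3 fell, beside 3.32% of all genes tested called higher and 3.46% lower in edgeR. Zfp459 rose from 1.44 ± 0.26 to 2.92 ± 0.94 CPM (SD, n = 7, edgeR adjusted p = 0.00915), whereas Zfp456 (log2 fold change −0.84 ± 0.20, SE), Zfp493 (−0.42 ± 0.10) and Zfp708 (−0.37 ± 0.091) fell, with edgeR adjusted p-values of 0.0210 to 0.0242. Zfp738 was the lowest of the members, with 9.14, 11.01 and 13.7 CPM in mice labelled LPAR2-/- and 12.9, 14.2 and 16.1 CPM in WT mice (−0.31 ± 0.099, SE, edgeR adjusted p = 0.0725, and 0.0446 without mouse 2 labelled LPAR2-/-), and Zfp748 the highest (0.085). Zfp58 of the same cluster shares 50.2% of its 50-base windows with Gm26965, the highest share of all members, and its count is therefore uncertain. Sharing was otherwise limited, with no shared window in 98 of 177 matched members and over 10% of windows in 9. Windows were compared by sequence alone, so that overlapping models of the same place also count as shared. How far this sharing changed the counts was not tested.

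Of the chromosomes without a cluster, chromosome 2 carried the most members, with 6 positive and 4 negative values and a median of 0.082. Its Zfp831, named after its values were seen as the member next to the threshold, was at −0.19 ± 0.055 (SE, edgeR adjusted p = 0.0534). Chromosome 4, with Zfp46 and Zfp933, had 3 positive and 4 negative values from −0.46 to 0.44. Chromosome 3, with Zfp687, had 3 positive and 1 negative, and chromosome 15 had 4 positive and 2 negative with a highest value of 0.15. All 4 values on chromosome 16 were negative but small (−0.078 to −0.025), as were both on chromosome 10 and both on chromosome 14. Both members on chromosome 19 were negative with an unadjusted p under 0.05, Zfp950 at −0.37 and Zfp91 at −0.086, and neither passed the threshold in edgeR. The 3 members on chromosome 1 ranged from −0.036 to 0.12 and the 4 on chromosome 12 from −0.097 to 0.096. On chromosome X the 3 members ranged from −0.15 to 0.052.

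In clusters, 3 members were higher and 1 was lower (4.17% of 96), beside 6.77% of all genes tested in edgeR. Outside clusters, 3 were higher and 0 lower (3.66% of 82), with a median log2 fold change of −0.016. There 14 members had an unadjusted p under 0.05 in edgeR, beside 22.4% of all genes tested. By coding sequence, 3 of the 76 members with the KRAB pattern were higher and 0 lower (median −0.011), and 3 of the 101 without it were higher and 1 lower (median −0.020). Members with 10 or more fingers had 3 higher and 1 lower of 102 (median −0.021), and those with fewer had 3 higher and 0 lower of 75 (median −0.0071). Positive values were found for 33 of 76 members with the KRAB pattern and for 42 of 101 without it. The class without the pattern may hold KRAB genes that the pattern misses.

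**Figure D3:**
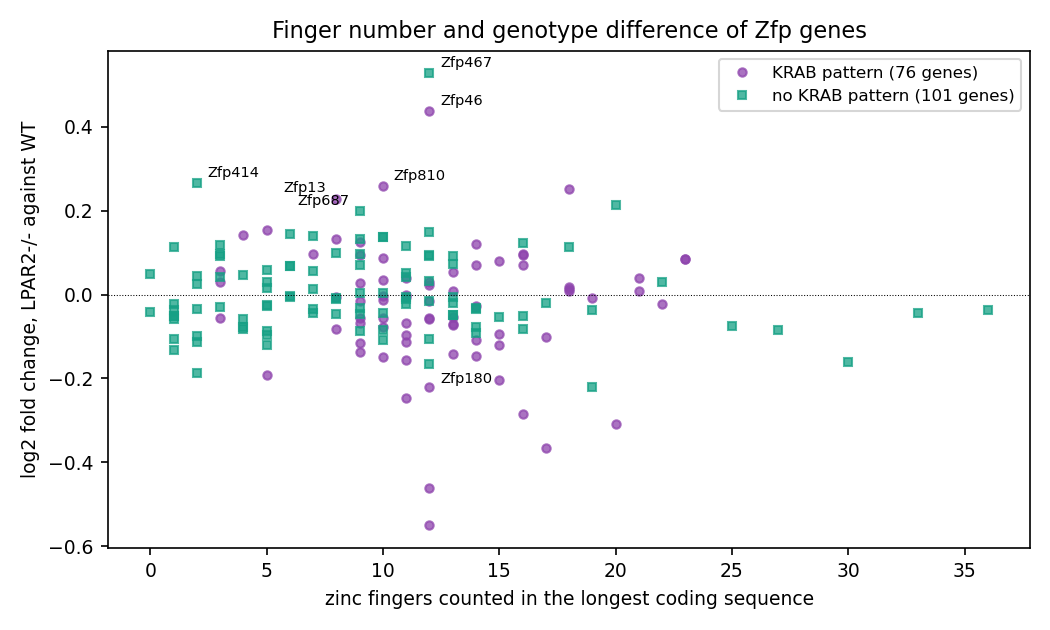
Log2 fold change (mice labelled LPAR2-/- against WT, y axis) against the number of C2H2 fingers in the longest coding sequence (x axis) for 177 Zfp genes. Circles are the 76 genes with a KRAB pattern and squares the 101 without it. The 7 named genes passed the threshold, with 2 to 12 fingers, and both symbols lie on both sides of 0.

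Per kilobase of exon, the members' mean levels spanned 1.61 to 84.1 CPM with a median of 6.81 CPM. Zfp365, which encodes a protein that binds DISC1 and is known from neurons and their neurites, was highest with 84.1 CPM per kilobase. Its level was 331, 354 and 376 CPM in mice labelled LPAR2-/- and 338, 361 and 394 CPM in WT mice, so that the genotypes overlapped throughout (log2 fold change −0.041 ± 0.039, SE, edgeR adjusted p = 0.586). Next came Zfp706 with 51.5 and Zfp207, a spindle protein that binds BUB3, with 50.1 CPM per kilobase. Zfp523 (38.3), Zfp445 (38.2), Zfp692 (27.4), Zfp414 (24.97), Zfp260 (24.5), Zfp740 (24.3) and Zfp146 (22.2) followed on the same scale. Zfp445 is known for the maintenance of genomic imprints. It was at 220, 232 and 269 CPM in mice labelled LPAR2-/- and 222, 236 and 247 CPM in WT mice (0.023 ± 0.044, SE). Of these 10 genes, Zfp414 passed the threshold. The 9 others had log2 fold changes between −0.12 (Zfp692) and 0.057 (Zfp523), with adjusted p-values of 0.194 or more in edgeR.

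**Figure D4:**
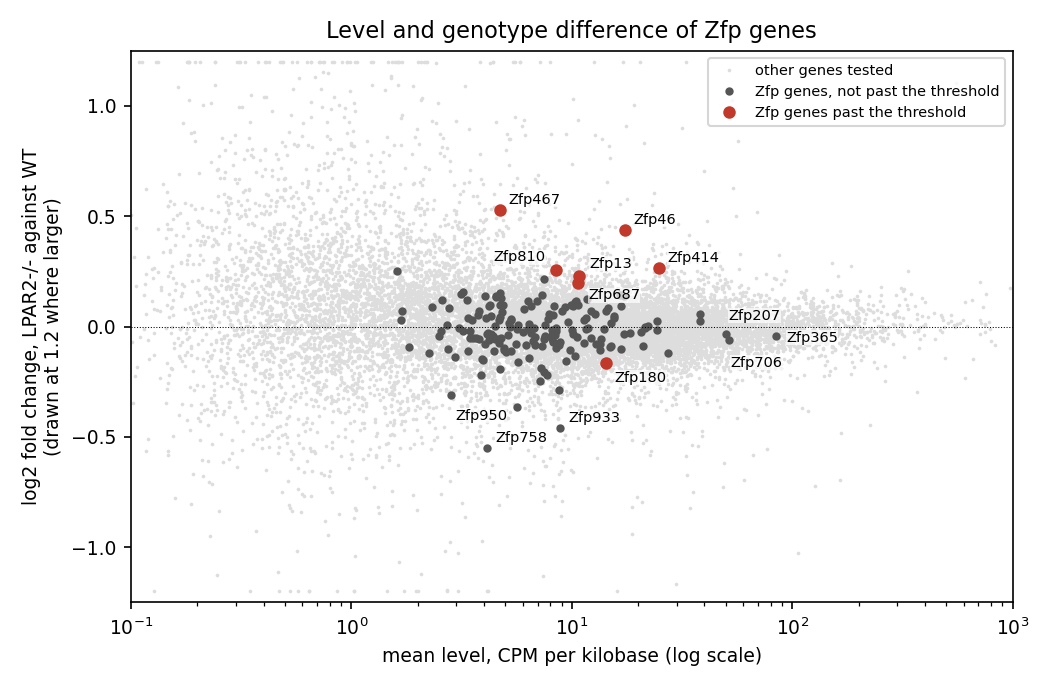
Log2 fold change (y axis) against the mean level in CPM per kilobase (x axis, log scale) for the 178 Zfp genes over the other genes tested, with values beyond 1.2 drawn at 1.2. The 7 Zfp genes past the threshold lie between 4.74 and 24.97 CPM per kilobase, and Zfp365, the highest Zfp gene, lies close to 0.

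Of 9 members listed for their known roles (Zfp110, Zfp365, Zfp207 and those that follow), none passed the threshold. Zfp335, needed for the proliferation of neural progenitors, was at 71.4, 81.2 and 86.3 CPM in mice labelled LPAR2-/- and at 69.4, 74.8 and 76.4 CPM in WT mice (0.092 ± 0.044, SE, edgeR adjusted p = 0.224). Zfp638, which brings the HUSH silencing complex to unintegrated retroviral DNA, was at 96.5, 103 and 117 CPM and at 101, 114 and 120 CPM (−0.10 ± 0.051, SE, adjusted p = 0.256). Zfp106, an RNA-binding protein whose loss leads to motor neuron degeneration, was at −0.030 ± 0.038 (SE). Zfp598, the ubiquitin ligase of collided ribosomes, was at −0.023 ± 0.070, and Zfp292 at −0.032 ± 0.064. Zfp462 was at −0.045 ± 0.17, with one of the largest errors of all members. Without single mice its value ran from −0.15 to 0.039. Zfp191 stood in the same list under its other symbol Zfp24 and is not among these 9. Its log2 fold change was −0.057, and it did not pass the threshold.

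Spread between mice was largest for Zfp758, with an SD of 0.44 within a genotype on the log2 CPM scale, then for Zfp462 (0.36), Zfp367 (0.31), Zfp40 (0.30), Zfp933 (0.29) and Zfp950 (0.26). Zfp758 was at 4.82, 5.94, 8.88, 13.01, 10.2, 11.2 and 15.7 CPM in mice 1 to 7 labelled LPAR2-/-, and at 12.6 to 16.8 CPM (median 14.4) in WT mice. Thus 5 of 7 mice labelled LPAR2-/- were below the lowest WT mouse, and mice 4 and 7 of that group lay among the WT mice. Without mouse 7 labelled LPAR2-/- the adjusted p was 0.0417. Zfp40 (chr17:23173869-23193228) was likewise lowest in mice 1 and 2 labelled LPAR2-/-, at 21.9 and 21.8 CPM, against 27.9 to 48.4 CPM in the other 5 and 35.7 to 43.2 CPM in WT mice (−0.29 ± 0.15, SE, adjusted p = 0.268). Zfp950 (chr19:61053840-61140840) was at 35.6 and 37.1 CPM in the same 2 mice, at 55.5 to 61.3 CPM in the other 5 and at 57.8 to 74.8 CPM in WT mice (−0.37 ± 0.12, SE, adjusted p = 0.0881). Each of these 3 genes thus had its 2 lowest values in the same 2 mice. Other mice labelled LPAR2-/- were below the lowest WT mouse too, namely 3 for Zfp758, mice 3 and 5 for Zfp40, and mice 6 and 7 for Zfp950. These genes and mice were picked out after the values were seen. Summed microglia markers were at 268 and 265 CPM in these 2 mice, the 2 lowest of all libraries (270 to 373 CPM in the other 12), and summed astrocyte markers at 4007 and 3924 CPM, the 2 lowest of their group (4040 to 4572 CPM in the other 5). The choroid plexus markers, high in mouse 2 labelled LPAR2-/-, were at 26.3 CPM in mouse 1 of that group, the lowest sum of all libraries. The part of these cell types in the low values was not tested.

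Zfp933 (chr4:147822986-147848375) had the reverse arrangement. It lay between 28.4 and 39.2 CPM (median 29.0) in mice labelled LPAR2-/-, and between 29.9 and 59.4 CPM (median 44.3) in WT mice (−0.46 ± 0.14, SE, edgeR adjusted p = 0.0718). WT mice 1, 3 and 7 were at 29.9, 38.3 and 31.2 CPM, within the range of the mice labelled LPAR2-/-, and the other 4 WT mice at 44.3 to 59.4 CPM. Of these 3, WT mice 1 and 7 also lay within the range of the other genotype for Zfp46 on the same chromosome. Without WT mouse 1 the adjusted p of Zfp933 was 0.0220, and without WT mouse 7 it was 0.0350. By contrast, Zfp462 and Zfp367 varied in both genotypes. Zfp367 was at 9.02 to 20.2 CPM (median 15.3) in mice labelled LPAR2-/- and at 13.7 to 20.04 CPM (median 15.03) in WT mice, and Zfp462 at 17.3 to 36.6 CPM and 19.7 to 35.8 CPM. Among the marker sums, WT mouse 1 had the highest level of microglia markers of all libraries (373 CPM, against 270 to 309 CPM in the other WT mice). WT mouse 7 was at 283 CPM for these markers. WT mice 1 and 7 had the lowest astrocyte levels of the WT mice (3980 and 4280 CPM, against 4340 to 4691 CPM in the others). WT mouse 7 had the highest oligodendrocyte level of the WT mice (1894 CPM), whereas WT mouse 1 was at 1291 CPM, within the range of the others. The meningeal markers of WT mice 1 and 7 were at 110 and 89.7 CPM, within the range of the other WT mice. The part of these cell types was not tested.

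**Figure D5:**
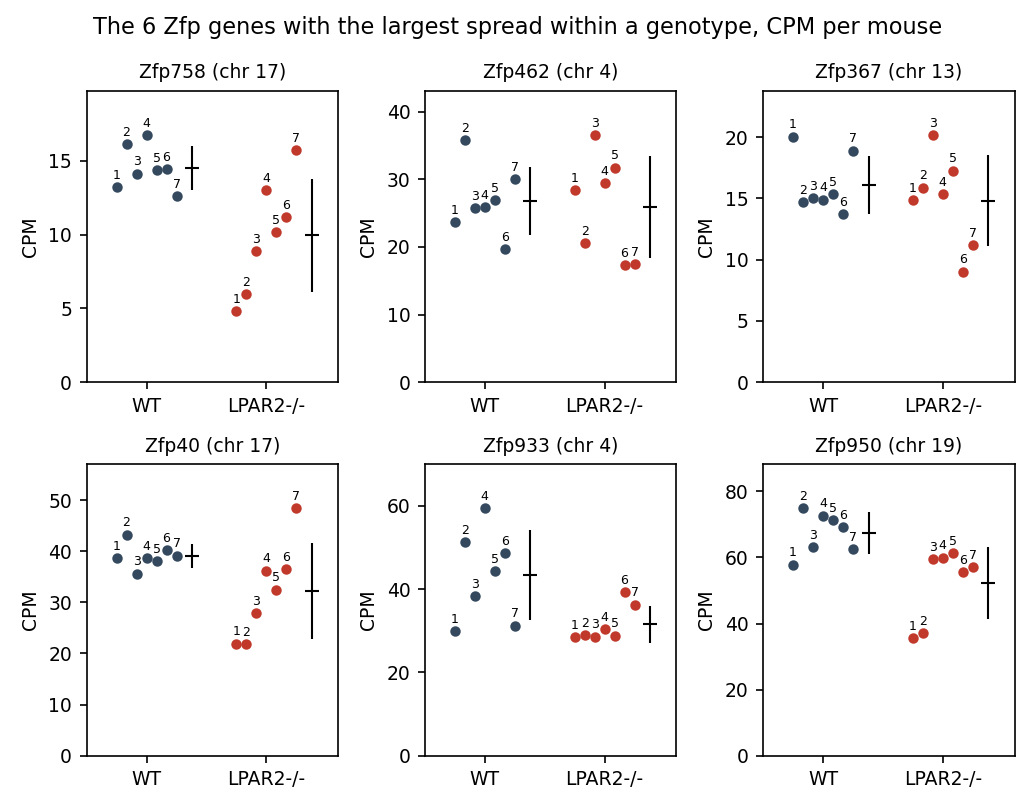
CPM per mouse of the 6 Zfp genes with the largest spread within a genotype, drawn for WT mice (dark) and mice labelled LPAR2-/- (red), with the mean and SD (n = 7). Mice 1 and 2 labelled LPAR2-/- are low for Zfp758, Zfp40 and Zfp950, WT mice 1 and 7 are low for Zfp933, and Zfp462 and Zfp367 spread in both genotypes.

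Zfp genes that the rule left out, and other C2H2 families, were counted in the same edgeR fit. In this fit 6.77% of all genes tested passed the threshold. Of the 120 Zfp genes with a mean count under 200 outside chromosomes 5 and 8, 101 were tested, and 2 were higher and 4 lower (5.94%), 4 of these 6 on chromosome 13. On chromosome 5, 0 of 15 were higher and 1 was lower. Chromosome 8, which carries Lpar2, had 2 higher and 3 lower of 23 (21.7%), with values from −0.65 for Zfp617 to 1.03 for Zfp868. In the Zbtb family, whose members pair fingers with a BTB domain, 1 of 39 passed the threshold, Zbtb40, which fell (−0.50 ± 0.13, SE, edgeR adjusted p = 0.0268). In the Zscan and Zkscan families 1 of 15 rose, Zkscan17 (0.18 ± 0.050, SE, adjusted p = 0.0451). Of the Klf and Sp factors, which bind GC-rich promoters, Klf11 rose (0.41 ± 0.10, SE, adjusted p = 0.0238) and Klf10 fell (−0.42 ± 0.097, SE, adjusted p = 0.0203), while the other 20 tested did not pass. DESeq2 called 2 lower Zbtb genes, 2 lower and 1 higher Klf and Sp genes, 4 lower and 2 higher Zfp genes on chromosome 8, and 3 lower and 2 higher of the Zfp genes under the count limit, beside its 9.35% of all genes tested.

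The list of corepressors and heterochromatin proteins that act with KRAB zinc finger proteins, among them Trim28, Setdb1 and the HP1 genes Cbx1, Cbx3 and Cbx5, had 0 of 33 tested genes past the threshold in edgeR. The share of all genes tested that passed it was 6.77%. An unadjusted p under 0.05 was found for 5 of the 33, beside 22.4% of all genes tested, and DESeq2 called 1 higher and 1 lower, beside 9.35% of all genes tested. Their log2 fold changes ranged from −0.26 to 0.30 with 10 positive and 23 negative values and a median of −0.019.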

How the data were processed

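The authors trimmed reads of total RNA libraries with cutadapt 1.18, aligned them with STAR to mm10 and counted them per gene over exons with featureCounts 1.6.3 (setting 2, reverse strand), without reads matching several genes or places. The deposited values are raw counts per gene in 7 mice labelled LPAR2-/- and 7 WT mice. A deposited table of normalized values was not used, since its decimal points are lost. Depth was 15434620 to 23258949 counts per mouse.

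Genes that passed filterByExpr (14897 of 24421) were fitted with edgeR 4.0.16 in R 4.3.3 (TMM, robust quasi-likelihood F test, no covariate) and p-values were adjusted over all of them by Benjamini-Hochberg, threshold 0.05. SE is the log2 fold change divided by the square root of F. CPM were scaled by TMM, and log2 CPM had a prior count of 2. The p-values measure the spread between these mice. Among 42 pairs of libraries within a genotype, none was a copy of the other (chi-square over degrees of freedom of 3.29 or more).

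Members and lists were chosen with earlier results of these data known. Named were the members past the threshold, the 10 with the largest fold change, the 10 highest per length and both extremes of each cluster. Also named were the 2 genes on either side of the count limit, 9 known members with Zfp191, Lpar2 and the 6 most variable members. Genes past the threshold were named for the Zbtb, Zscan and Zkscan, and Klf and Sp families, and only in part for the Zfp genes left out by the rule. Zinc fingers and KRAB patterns were read from the longest translated coding sequence of each gene in GENCODE M21, with Python 3.11.15. Alternatives were DESeq2 1.42.0, other normalizations and filters, a prior count of 0.5, a replicate block, each mouse left out, other limits on the mean count and other cluster distances.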

Additional observations from a re-analysis of the deposited data

Results flagged for a closer look

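Among the 54 named members, 108 groups of 7 mice were screened for a single mouse that stood apart, and 9 were found, where chance gives about 1 in 20. In WT mouse 1, Zfp112 was high at 11.96 CPM (nearest 10.62), Zfp626 low at 12.81 CPM (nearest 15.14) and Zfp740 low at 94.99 CPM (nearest 101.7). WT mouse 7 was low for Zfp746 at 34.88 CPM (nearest 40.6) and for Zfp560 at 9.449 CPM (nearest 10.92). WT mouse 3 was low for Zfp260 at 77 CPM (nearest 90.3). Among mice labelled LPAR2-/-, mouse 6 was high for Zfp626 at 17.2 CPM (nearest 14.21), mouse 3 was low for Zfp719 at 21.39 CPM (nearest 22.49), and mouse 4 was low for Zfp706 at 196.1 CPM (nearest 219.8). None of these genes passed the threshold.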

How the results depend on the processing

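The 7 calls were kept under DESeq2, its size factors, upper quartile normalization and both filters. DESeq2 called 6 members higher and 5 lower, adding Zfp933 (adjusted p = 0.0162), Zfp831, Zfp950 (0.0297) and Zfp738 (0.0395). With upper quartile normalization the calls over all genes were 616 higher and 377 lower instead of 494 and 515, and the fold changes of Zfp260 (0.0038), Zfp9 (0.0044), Zfp579 (0.010) and Zfp426 (0.013) turned positive. DESeq2 called 667 higher and 726 lower genes, and 450 and 408 were called without the filter. Members with a mean count of 100 or more included 2 lower calls. Same-numbered mice correlated at −0.33 to 0.31 after removal of the genotype means, with 3 of 7 over 0.1. Mice of different numbers were not compared, so that these values cannot show whether the numbers pair the mice. When mouse number was fitted as a replicate block, 3 members were higher and 0 lower (314 and 272 over all genes), and Zfp13 (adjusted p = 0.0778), Zfp414 (0.0502), Zfp687 (0.0627) and Zfp180 (0.0562) missed the threshold. Leaving out 1 mouse at a time gave 3 to 8 higher and 0 to 5 lower members, with medians of −0.029 to −0.00023, beside 3.79% to 9.26% of all genes called. The total fell to 3 without LPAR2-/- mouse 1, WT mouse 2 or WT mouse 4, and rose to 11 without LPAR2-/- mouse 3, LPAR2-/- mouse 7 or WT mouse 1. The cause was not tested. Signs turned in some of these fits for members near 0, whose fold changes ranged from −0.022 to 0.031 (Zfp146), −0.054 to 0.0031 (Zfp260), −0.057 to 0.0087 (Zfp35), −0.0012 to 0.060 (Zfp39), −0.021 to 0.0090 (Zfp426), −0.0079 to 0.044 (Zfp445), −0.15 to 0.039 (Zfp462), −0.045 to 0.028 (Zfp579), −0.068 to 0.0077 (Zfp598), −0.023 to 0.039 (Zfp606), −0.011 to 0.036 (Zfp74), −0.0056 to 0.057 (Zfp746) and −0.040 to 0.0077 (Zfp9). The median SE was 0.069 for the 83 members with mean counts under 500 and 0.053 for the 95 others.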
